A study of Saccharomyces cerevisiae with 30 samples.

Results

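The last step of a time course after loss of a centromere was examined: cen4- cells at 180 min were compared with cen4- cells at 120 min after beta-estradiol. Members were the 6 of 30 libraries whose labels give the condition cen4- t180 or cen4- t120, 3 at each time. Both strains of the study are haploid MATa Saccharomyces cerevisiae in the S288c background. The excised strain carries lox-CEN4-lox:KanMX, a chromosome IV centromere between lox recombination sites, together with GDP-creEBD78:LEU2, a Cre recombinase joined to an estradiol-binding domain. It is called CEN4* before and cen4- after the recombinase has removed the centromere. The CEN4 control strain has ura3::GDP-cre EBD78:LEU2 and a centromere without lox sites, and supplied 3 libraries at 180 min and 3 at 120 min. All groups share the deletions his3-delta-1, met15-delta-0, leu2-delta-0 and ura3-delta-0, rich glucose medium (YPD) at 30 °C and 1 µM beta-estradiol. The libraries come from 3 independent experiments. The files do not record what share of the cells had undergone excision.

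A centromere is the site where the kinetochore forms and spindle microtubules attach. A budding yeast chromosome has a single short centromere, and a copy without it is not segregated reliably, so that some daughter cells receive additional copies and others receive none. Budding yeast adjusts growth through opposed groups of genes: ribosomal protein and ribosome biogenesis genes are active in rapid growth, and environmental stress genes, many with binding sites for the factors Msn2 and Msn4, are active when growth slows. Cultures in glucose medium also change with density and glucose use, and the control strain gives the same interval without excision.

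Values are normalised counts, read counts divided by the library's size factor. The 6 cen4- libraries held between 9738591 and 11023207 reads, and no pair of replicates agreed within counting noise (chi-square per degree of freedom between 1.48 and 3.17). The a-cell genes MFA1, MFA2, STE2, STE6, BAR1 and ASG7 were expressed in every cen4- library (between 224 normalised counts for ASG7 and 9267 for STE2). Of the alpha-cell markers, MF(ALPHA)1 had between 3.55 and 22.9 normalised counts, STE3 between 60.1 and 74.7, MF(ALPHA)2 between 116 and 145 and SAG1 between 503 and 545, and none of the 4 was called. URA3 and MET17 had 0 reads in all 12 libraries of both strains at 180 and 120 min. LEU2 had 2635, 2627 and 2626 normalised counts in cen4- cells at 180 min, against 2398, 2523 and 2390 at 120 min, all 3 above the earlier values (log2 change 0.11 ± 0.04 SE, adjusted p = 0.0328 by limma), a call that was lost in 5 of the 6 fits that leave out 1 library, with adjusted p up to 0.122. These are bulk samples, in which fewer cells of a type and less RNA per cell cannot be told apart.

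Over the 60 min step in cen4- cells, normalised counts of stress, purine and ribosome assembly genes rose. Those of ribosomal protein genes, mitotic genes, core histone genes and many small nucleolar RNAs fell. A gene was called at a Benjamini-Hochberg adjusted p below 0.05 by limma. Of 5948 genes tested, 699 were higher at 180 min (11.8% of those tested) and 766 lower (12.9%), 1465 in all (24.6%). Most changes were small: the median called change was 1.16-fold (0.21 on the log2 scale), 48 called genes passed 1.5-fold and 2 passed 2-fold. Those 2 were LSO1 and ANS1, and ANS1 was named after its values were seen. Of the 1465 called genes, 1427 had no overlap between the 3 values at 180 min and the 3 at 120 min, which held for 2595 of the 5948 genes tested. When every library was brought to an equal total instead, the median over all genes was 0.04, and 1035 genes were called higher and 556 lower.

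The control strain also changed over these 60 min, and most calls were not shared. In CEN4 cells 451 genes were higher (7.58% of those tested) and 490 lower (8.24%), 941 in all (15.8%); at equal library totals the counts were 536 and 396. Of the 699 genes higher in cen4- cells, 169 were also higher in CEN4 cells and 50 were lower there. Among the 766 lower genes, 184 were also lower in CEN4 cells and 21 were higher there. The shared genes were 24.2% of the higher and 24.0% of the lower cen4- calls, and 37.5% and 37.6% of the matching CEN4 calls. The test of the difference between the 2 steps, which share no library, called 741 genes (12.5%), with 381 above 0, that is, more positive in cen4- cells (6.41%), and 360 below 0 (6.05%). Of the 699 higher genes 245 passed this test, and 273 of the 766 lower genes did.

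**Figure D1:**
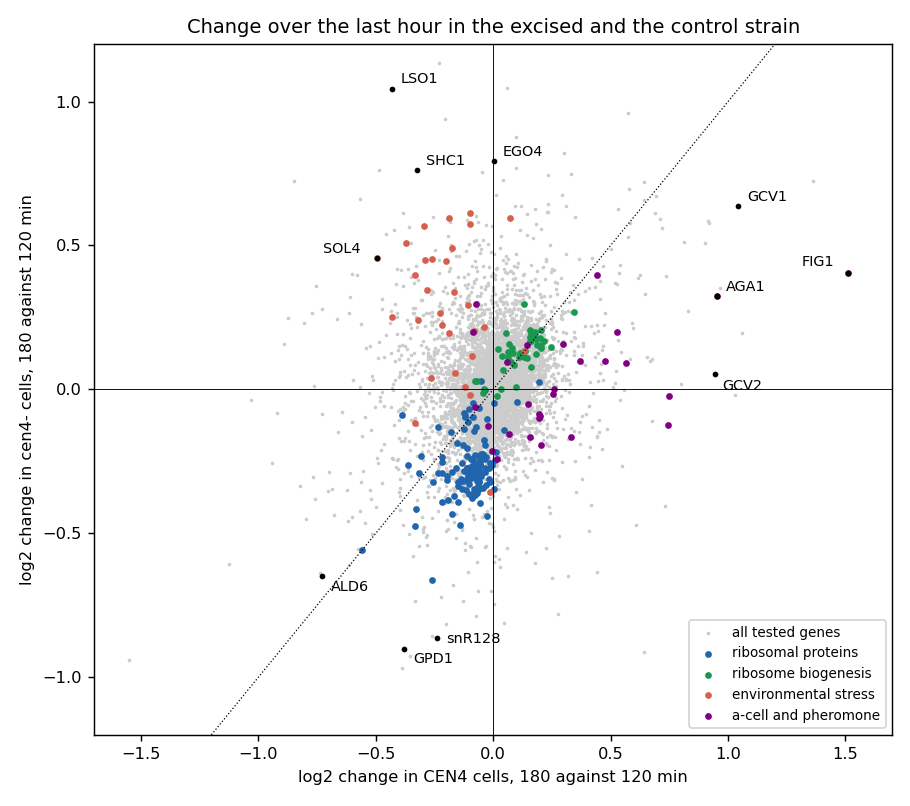
Each point is 1 of the 5948 tested genes, with the log2 change from 120 to 180 min in cen4- cells on the vertical axis and in CEN4 cells on the horizontal axis; the dotted line marks equal changes, and 2 genes lie outside the axes. The median of the stress genes is 0.28 in cen4- and -0.19 in CEN4 cells, that of ribosomal protein genes -0.28 and -0.09, and that of ribosome biogenesis genes 0.14 and 0.13.

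The largest rises included genes of iron supply, sporulation, the cell wall and slow growth. LSO1 (YJR005C-A, chrX:448477-448758), a small protein induced by iron deprivation, had 94.98, 115 and 106 normalised counts in cen4- cells at 180 min, against 48.9, 43.7 and 60.1 at 120 min (log2 change 1.04 ± 0.32 SE, adjusted p = 0.0106 by limma). The largest rises were picked without overlap between the times in cen4- cells, so all 3 later values exceeded all earlier ones by that choice. CEN4 cells had 10.5, 3.87 and 6.99 at 180 min against 8.91, 6.02 and 14.8 at 120 min. The call was lost without cen4- replicate 2 at 120 min (adjusted p = 0.0548). At 0 min, before excision, LSO1 already averaged 51.2 ± 7.06 in the excised strain against 10.3 ± 3.98 in the control. These are means and SDs of 3 libraries. The excised strain's means were then 62.3, 51.1 and 50.9 at 30, 60 and 120 min. The lower level in the control was thus present before excision. HMX1, the heme oxygenase that frees iron from heme, had 489.6, 492 and 467 normalised counts in cen4- cells at 180 min, against 309, 264 and 278 at 120 min (log2 change 0.77 ± 0.13 SE, adjusted p = 1.95e-06). SHC1, which activates a chitin synthase during sporulation, had 1185, 1199 and 1142 normalised counts in cen4- cells at 180 min, against 683, 697 and 698 at 120 min (log2 change 0.76 ± 0.13 SE, adjusted p = 7.95e-05). In CEN4 cells SHC1 stayed low, with 187, 209 and 134 at 180 min against 220.5, 212 and 221 at 120 min. EGO4 had 945, 974 and 973 normalised counts in cen4- cells at 180 min, against 564, 589.5 and 516 at 120 min (log2 change 0.79 ± 0.10 SE, adjusted p = 1.34e-09). The CEN4 cells had 420.2, 458 and 488 at 180 min against 405, 499 and 463 at 120 min, and there the groups overlapped.

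LYS20 (YDL182W, chrIV:133437-134723), a homocitrate synthase at the start of lysine synthesis, had 6500, 6256 and 6213 normalised counts in cen4- cells at 180 min, against 4003, 3970 and 3888 at 120 min (log2 change 0.68 ± 0.04 SE, adjusted p = 2.14e-22 by limma). Its near-identical copy LYS21 can share reads with it, so the split between the copies is uncertain. In the excised strain LYS20 averaged 4968 ± 21.4, 3622 ± 69.8, 3691 ± 75.9, 3954 ± 59.04 and 6323 ± 155 normalised counts at 0, 30, 60, 120 and 180 min (SD, n = 3 each), and in CEN4 cells 3251 ± 23.2, 2305 ± 93.1, 2260 ± 75.2, 2031 ± 92.1 and 2049 ± 53.2 (SD, n = 3 each). SPG4, a stationary-phase gene, rose (log2 change 0.88, adjusted p = 6.28e-07), as did MPC3, a subunit of the mitochondrial pyruvate carrier (log2 change 0.76, adjusted p = 0.00256), PIR3, a cell wall protein (log2 change 0.75, adjusted p = 3.08e-06), and YER084W (log2 change 0.74, adjusted p = 0.00354). PIR3 rose by less in CEN4 cells (log2 change 0.33, adjusted p = 0.0205), a call lost in some fits without 1 library and with edgeR. PDC6, a minor pyruvate decarboxylase, had 467, 529 and 470.4 normalised counts in cen4- cells at 180 min, against 314, 314 and 276 at 120 min (log2 change 0.70 ± 0.15 SE, adjusted p = 0.000692), and it rose in CEN4 cells too (log2 change 0.58, adjusted p = 0.00762).

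Among the largest falls were a glycerol enzyme, a hexose transporter and several small structural RNAs. GPD1 (YDL022W, chrIV:411825-413000), the glycerol-3-phosphate dehydrogenase that makes glycerol under osmotic stress, had 834, 896 and 865 normalised counts in cen4- cells at 180 min, against 1615, 1726 and 1512 at 120 min (log2 change -0.90 ± 0.06 SE, adjusted p = 5.36e-17 by limma). These largest falls, too, were picked without overlap between the times in cen4- cells. GPD1 also fell in CEN4 cells (log2 change -0.38, adjusted p = 1.25e-06), by less (difference of the steps -0.52 ± 0.08 SE, adjusted p = 3.9e-06). HXT7, a high-affinity hexose transporter with the near-identical copy HXT6, had 724, 651 and 752 normalised counts in cen4- cells at 180 min, against 1256, 1197 and 1089 at 120 min (log2 change -0.74 ± 0.09 SE, adjusted p = 2.5e-06). ALD6, the main cytosolic acetaldehyde dehydrogenase, fell in both strains, with log2 changes of -0.65 in cen4- and -0.73 in CEN4 cells (difference 0.08 ± 0.07 SE, adjusted p = 0.554). SRG1, a noncoding RNA whose transcription represses its neighbour SER3, had 419, 498 and 430 normalised counts in cen4- cells at 180 min, against 695, 731 and 629 at 120 min (log2 change -0.61 ± 0.07 SE, adjusted p = 3.22e-08). SRG1 fell in CEN4 cells too (log2 change -0.62, adjusted p = 5.01e-08), with a difference of the steps of 0.01 ± 0.10 SE (adjusted p = 0.98). It overlaps the annotated SER3 region, so its reads cannot be told apart from those of its neighbour.

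**Figure D2:**
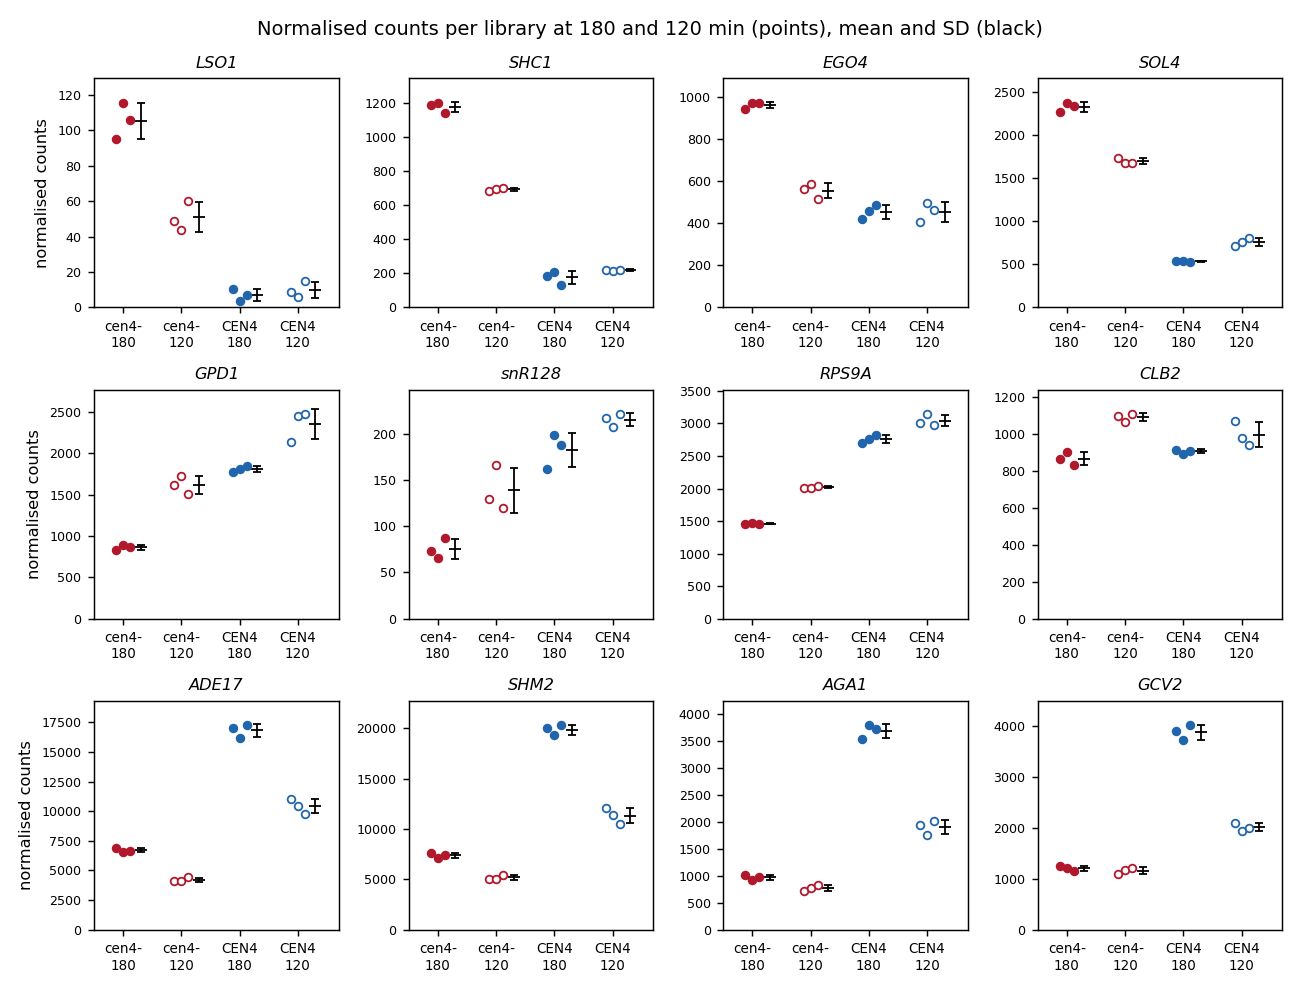
Normalised counts of 12 named genes (vertical axes, from 0) in each library of cen4- cells at 180 and 120 min and CEN4 cells at 180 and 120 min; points are libraries, and black marks are the mean and SD of 3. LSO1, SHC1, EGO4 and SOL4 rose in cen4- cells, GPD1, snR128, RPS9A and CLB2 fell, and GCV2 did not pass the test in cen4- cells.

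Small nucleolar RNAs, which guide the chemical modification and cutting of ribosomal RNA, were among the falls. Both lists of them were drawn up after their values were seen. Whether the capture of these RNAs varied between libraries, or whether the reads came from mature or unprocessed forms, was not tested. Of 27 tested H/ACA box RNAs, which guide pseudouridine formation, 14 fell and 1 rose (median log2 change -0.35, against 0.01 over all genes tested). Of 36 tested C/D box RNAs, most of which guide 2'-O-methylation, 15 fell and none rose (median -0.32), or 9 without replicate 2 of cen4- cells at 120 min. In CEN4 cells 1 of the H/ACA RNAs fell and 1 rose, and 1 of the C/D RNAs fell (medians -0.07 and -0.17). The difference of the steps was called below 0 for 7 H/ACA and 2 C/D RNAs.

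snR128, known as U14, is a C/D box RNA needed for processing of 18S ribosomal RNA. Its gene is shown because it had the largest fall among the named small nucleolar RNAs; the capitals mark the box C letters TGATGA near the 5' end and the box D letters CTGA near the 3' end.
snR128 (chrX:139566-139691, reverse strand): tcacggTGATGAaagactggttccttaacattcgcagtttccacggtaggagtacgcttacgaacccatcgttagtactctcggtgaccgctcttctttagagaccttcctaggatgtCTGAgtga
It had 73.4, 65.9 and 87.7 normalised counts in cen4- cells at 180 min, against 129.7, 167 and 120.1 at 120 min (log2 change -0.86 ± 0.15 SE, adjusted p = 9.34e-05 by limma). Like the other largest falls, it was picked without overlap between the times. In CEN4 cells it had 162, 199 and 188 at 180 min against 217, 208 and 222 at 120 min, and the difference of the steps missed the threshold (-0.62 ± 0.22 SE, adjusted p = 0.0585). snR43, an H/ACA RNA, had 56.99, 53.3 and 49.9 normalised counts in cen4- cells at 180 min, against 87.9, 98.99 and 83.9 at 120 min (log2 change -0.75 ± 0.13 SE, adjusted p = 1.17e-05), and its CEN4 values overlapped between the times. snR49 (log2 change -0.74, adjusted p = 5.81e-05), snR8 (log2 change -0.70, adjusted p = 0.000224) and snR5 (log2 change -0.63, adjusted p = 2.39e-06), all H/ACA RNAs, fell as well. snR19, the U1 RNA of the spliceosome, had 68.2, 69.8 and 55.03 normalised counts in cen4- cells at 180 min, against 105, 109.7 and 89.6 at 120 min (log2 change -0.65 ± 0.20 SE, adjusted p = 0.0218). This call was lost without replicate 1 or 2 of cen4- cells at 120 min or replicate 3 at 180 min (adjusted p = 0.0681, 0.0812 and 0.104) and in the edgeR test (adjusted p = 0.129).

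Of 30 environmental stress genes, which rise together under many stresses, 21 rose in cen4- cells and 1 fell (median log2 change 0.28, against 0.01 over all genes). In CEN4 cells none rose and 11 fell (median -0.19), and the difference of the steps was above 0 for 23 and below 0 for 1. GND2, a 6-phosphogluconate dehydrogenase, had 1975, 2120 and 1956 normalised counts in cen4- cells at 180 min, against 1347, 1391 and 1218 at 120 min (log2 change 0.61 ± 0.11 SE, adjusted p = 0.00022 by limma). The small heat-shock protein gene HSP26 (log2 change 0.60, adjusted p = 0.00037), the aldehyde dehydrogenase gene ALD3 (log2 change 0.59, adjusted p = 9.29e-05), which has a near-identical copy in ALD2, and the transketolase gene TKL2 (log2 change 0.57, adjusted p = 0.000176) rose with it. The gene that fell was HXK1, a hexokinase, named after its value was seen (log2 change -0.36).

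SOL4, a 6-phosphogluconolactonase, had 2267, 2371 and 2336 normalised counts in cen4- cells at 180 min, against 1734, 1676 and 1675 at 120 min (log2 change 0.46 ± 0.07 SE, adjusted p = 6.47e-06 by limma). In CEN4 cells it fell, with 542, 539 and 529 at 180 min against 717, 755 and 801 at 120 min (log2 change -0.49, adjusted p = 2.82e-06), and neither strain's groups overlapped. Over the course the excised strain averaged 389 ± 24.3, 917 ± 65.7, 696 ± 93.2, 1695 ± 33.5 and 2325 ± 53.01 normalised counts at 0, 30, 60, 120 and 180 min (SD, n = 3 each). CEN4 cells averaged 222 ± 21.7, 442 ± 32.7, 388 ± 34.5, 758 ± 42.1 and 537 ± 7.04 at the same times (SD, n = 3 each), with their highest mean at 120 min. TFS1, an inhibitor of carboxypeptidase Y, had 4687, 4969 and 5048 normalised counts in cen4- cells at 180 min, against 3440, 3602 and 3302 at 120 min (log2 change 0.51 ± 0.08 SE, adjusted p = 7.76e-05). In CEN4 cells it fell, with 1347, 1391 and 1424 at 180 min against 1628, 1829 and 1942 at 120 min (log2 change -0.37, adjusted p = 0.00359).

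The stress response element CCCCT, the core of the Msn2 and Msn4 binding site, was searched on both strands in the 250 bases before the start codon. It stood before 20 of the 30 stress genes (66.7%), against 19.1% of 5706 such windows of tested protein-coding genes. Windows of called genes held it in 26.1% of those higher and 15.6% of those lower. The stretches of SOL4 and TFS1 from 250 to 76 bases before the start codon are shown because these genes moved in opposite directions in the 2 strains. Capitals mark CCCCT or, where the element is on the other strand, AGGGG.
SOL4 (chrVII:985722-985896, forward strand): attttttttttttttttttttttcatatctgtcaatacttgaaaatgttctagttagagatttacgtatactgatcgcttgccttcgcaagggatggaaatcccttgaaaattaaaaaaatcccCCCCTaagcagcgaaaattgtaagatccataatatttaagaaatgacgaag
TFS1 (chrXII:513897-514071, reverse strand): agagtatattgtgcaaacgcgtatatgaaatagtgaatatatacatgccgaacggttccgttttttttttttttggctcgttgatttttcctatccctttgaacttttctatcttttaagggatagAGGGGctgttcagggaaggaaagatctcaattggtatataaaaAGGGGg
SOL4 has 1 element, which starts 126 bases before the start codon, and TFS1 has 2, starting 124 and 81 bases before it. A match describes these letters and is not evidence of binding.

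Other genes of storage and protection moved less evenly, beside 11.8% of all tested genes that rose and 12.9% that fell in cen4- cells. Of 20 glycogen and trehalose genes 6 rose and 7 fell in cen4- cells (median 0.04), whereas 13 fell and none rose in CEN4 cells (median -0.23). The 6 were 3 without replicate 1 or 3 of cen4- cells at 120 min, and 2 without replicate 2 or 3 at 180 min. GDB1, the glycogen debranching enzyme, had 2036, 2059 and 2054 normalised counts in cen4- cells at 180 min, against 1741, 1639 and 1731 at 120 min (log2 change 0.27 ± 0.06 SE, adjusted p = 0.00072 by limma), and it fell in CEN4 cells (log2 change -0.34, adjusted p = 3.7e-05). TPS2, which makes trehalose from trehalose phosphate, fell in both strains (log2 change -0.48, adjusted p = 4.28e-06 in cen4- and log2 change -0.30, adjusted p = 0.0033 in CEN4 cells), as did the glycogen synthase gene GSY1 (log2 change -0.44, adjusted p = 2.8e-05 in cen4- and log2 change -0.60, adjusted p = 2.49e-07 in CEN4 cells). Of 23 antioxidant genes 7 rose and 4 fell (median 0.08), or 2 fell at equal library totals and without replicate 1 of cen4- cells at 120 min or replicate 3 at 180 min. PRX1, a mitochondrial peroxiredoxin, had 3941, 4045 and 3919 normalised counts in cen4- cells at 180 min, against 2927, 3014 and 2905 at 120 min (log2 change 0.43 ± 0.05 SE, adjusted p = 1.77e-10), and GRX1, a glutaredoxin, rose (log2 change 0.31, adjusted p = 2.81e-07).

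Over all genes tested, 11.8% rose and 12.9% fell in cen4- cells. Of 21 heat-shock factor targets, mostly chaperones, 3 rose and 6 fell in cen4- cells (median 0.01). In CEN4 cells 1 rose and 14 fell (median -0.24), and the difference was above 0 for 10 and below 0 for none. The inducible Hsp70 gene SSA3 rose in both strains (log2 change 0.58 in cen4- and 0.58 in CEN4 cells, difference -0.01 ± 0.08 SE, adjusted p = 0.975 by limma). SSA4, another inducible Hsp70 gene, had 8025, 8519 and 8058 normalised counts in cen4- cells at 180 min, against 6726, 6674 and 6116 at 120 min (log2 change 0.33 ± 0.07 SE, adjusted p = 0.00141), and its CEN4 values overlapped between the times. SSA2, a constitutive Hsp70 gene with a near-identical copy in SSA1, fell (log2 change -0.41, adjusted p = 2.94e-15), and it fell in CEN4 cells (log2 change -0.50, adjusted p = 5.94e-19). Of 25 autophagy genes 7 rose and none fell (median 0.06), or 4 without replicate 3 of cen4- cells at 120 min. They included ATG8, the ubiquitin-like protein of the autophagosome, with 1036, 1172 and 1155 normalised counts in cen4- cells at 180 min, against 835, 781 and 729 at 120 min (log2 change 0.52 ± 0.08 SE, adjusted p = 6.86e-07).

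Ribosomal protein genes gave the broadest fall: of 137 tested, 122 fell and none rose (median -0.28, against 0.01 over all genes). In CEN4 cells 57 fell and none rose (median -0.09), and the difference of the steps was below 0 for 81 and above 0 for none. RPS9A, a small-subunit protein gene, had 1458, 1463 and 1449 normalised counts in cen4- cells at 180 min, against 2015, 2008 and 2038 at 120 min (log2 change -0.47 ± 0.04 SE, adjusted p = 1.75e-16 by limma). Its groups were tight and did not overlap, and its near-identical copy RPS9B can share reads with it. In CEN4 cells RPS9A had 2697, 2759 and 2822 at 180 min against 3009, 3144 and 2978 at 120 min (log2 change -0.14, adjusted p = 0.00333). The means in the excised strain were 2787 ± 20.1, 3382 ± 33.6, 2767 ± 73.7, 2021 ± 15.8 and 1457 ± 7.16 normalised counts at 0, 30, 60, 120 and 180 min (SD, n = 3 each). RPL33A had 78.6, 76.6 and 86.8 normalised counts in cen4- cells at 180 min, against 105, 112 and 120.1 at 120 min (log2 change -0.47 ± 0.13 SE, adjusted p = 0.00314). The other 2 genes with the largest changes, RPL43A and RPL39, had under 45 normalised counts in each cen4- library, and their calls were lost in 3 and 4 of the 6 fits without 1 library. Both calls were also lost with edgeR (adjusted p = 0.0637 and 0.0876) and DESeq2 (adjusted p = 0.0738 and 0.114). RPL39 lost it in limma too at equal library totals (adjusted p = 0.0567), with only the compared groups (adjusted p = 0.0572) and without a filter on low values (adjusted p = 0.0625).

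Genes that assemble ribosomes went the other way. Of 44 ribosome biogenesis genes 28 rose and none fell (median 0.14), and in CEN4 cells 23 rose and none fell (median 0.13). The difference of the steps was called for none of the 44. Without replicate 2 of cen4- cells at 120 min or without replicate 1 at 180 min, 14 rose. RRP8, a methyltransferase of 25S ribosomal RNA, had 1559, 1592 and 1569 normalised counts in cen4- cells at 180 min, against 1312, 1257 and 1274 at 120 min (log2 change 0.30 ± 0.05 SE, adjusted p = 6.36e-07 by limma). DBP2, an RNA helicase, had 11694, 10614 and 10490 normalised counts in cen4- cells at 180 min, against 9019, 8872 and 9289 at 120 min (log2 change 0.27 ± 0.07 SE, adjusted p = 0.00529), and it rose in CEN4 cells (log2 change 0.34, adjusted p = 0.00127). NOP2 (log2 change 0.21, adjusted p = 5.11e-05), another 25S methyltransferase, and UTP13 (log2 change 0.20, adjusted p = 0.000463), a component of the small-subunit processome, rose by less. Of 20 genes of RNA polymerases I and III, 1 rose, RPA49 (log2 change 0.19, adjusted p = 0.000298), and of 63 mitochondrial ribosomal protein genes 1 rose, MRPL16 (log2 change 0.22, adjusted p = 0.00146).

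Ribosome biogenesis genes share 2 promoter elements, named PAC and RRPE. In the 250 bases before the start codon, GCGATGAG (PAC) stood in 25 of 44 windows (56.8%), against 4% of the 5706 windows of all tested genes. It stood in 10.8% of the windows of genes called higher and 1.1% of those called lower. AAAAATTT (the RRPE core) stood in 38 of 44 (86.4%), against 13.9% of all windows, and in 22% of the higher and 11.1% of the lower ones. Both strands were searched. RRP8 and DBP2 are shown because both rose and hold both elements, in capitals, over the stretch from 250 to 76 bases before the start codon.
RRP8 (chrIV:611823-611997, forward strand): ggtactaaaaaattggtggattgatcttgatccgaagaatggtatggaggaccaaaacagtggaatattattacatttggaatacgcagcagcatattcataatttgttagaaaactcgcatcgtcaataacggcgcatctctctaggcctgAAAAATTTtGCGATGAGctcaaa
DBP2 (chrXIV:413389-413563, forward strand): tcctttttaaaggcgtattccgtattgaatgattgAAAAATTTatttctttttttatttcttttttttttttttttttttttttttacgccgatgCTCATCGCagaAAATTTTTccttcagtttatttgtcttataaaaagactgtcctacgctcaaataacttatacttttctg
In RRP8 the elements start 98 and 89 bases before the start codon, RRPE first. DBP2 has RRPE at 215 bases before it and, on the other strand, PAC at 155 and RRPE again at 144 bases.

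Cell-division genes of the mitotic program fell. Of 21 genes of the CLB2 cluster, which peak before and during mitosis, 17 fell and none rose (median -0.24), and in CEN4 cells 8 fell and none rose (median -0.12). The difference of the steps was below 0 for 4. CLB2, the main mitotic cyclin, had 861, 899.8 and 832 normalised counts in cen4- cells at 180 min, against 1094, 1063 and 1105 at 120 min (log2 change -0.33 ± 0.05 SE, adjusted p = 2.92e-07 by limma), with no overlap. It had 913, 892 and 905 at 180 min against 1067, 976 and 938 at 120 min in CEN4 cells and was not called there (difference -0.20 ± 0.07 SE, adjusted p = 0.0543). The mitotic kinase gene KIN3 (log2 change -0.44, adjusted p = 4.98e-07), the cytokinesis gene HOF1 (log2 change -0.37, adjusted p = 8.46e-07) and the histone deacetylase gene HST3 (log2 change -0.37, adjusted p = 7.58e-08) fell as well. KIN3, HOF1 and HST3 were each called lower in CEN4 cells too. In CEN4 cells KIN3 and HOF1 lost the call with edgeR and DESeq2, and HST3 with DESeq2. HOF1 also lost it there in some fits without 1 library. Of 8 core histone genes 6 fell in cen4- cells (median -0.15), and none was called in CEN4 cells (median -0.01). HHF1, a histone H4 gene, had 9356, 8956 and 9224 normalised counts in cen4- cells at 180 min, against 11083, 10755 and 10632 at 120 min (log2 change -0.24 ± 0.03 SE, adjusted p = 1.55e-08), with no overlap. CEN4 cells had 16601, 16095 and 15997 at 180 min against 15870, 16140 and 16462 at 120 min, which overlap (difference -0.24 ± 0.04 SE, adjusted p = 4.73e-05).

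Fewer genes of other cell-cycle stages were called in cen4- cells, where 11.8% of all tested genes rose and 12.9% fell. Of 30 G1/S genes 4 rose and 1 fell (median 0.03), whereas 17 rose and none fell in CEN4 cells (median 0.19). The difference was below 0 for 9. PCL1, a G1 cyclin gene, rose (log2 change 0.27, adjusted p = 0.00011). The G1 cyclin gene CLN2 was not called, with 1558, 1510 and 1537 normalised counts in cen4- cells at 180 min, against 1455, 1539 and 1493 at 120 min (log2 change 0.04 ± 0.05 SE, adjusted p = 0.606), although it rose in CEN4 cells (log2 change 0.29, adjusted p = 1.36e-06; difference -0.26 ± 0.06 SE, adjusted p = 0.00338). SIC1, an inhibitor of mitotic cyclin kinase, was not called (log2 change 0.07, adjusted p = 0.233). Of 35 kinetochore and spindle checkpoint genes 4 fell and none rose (median -0.08), SGO1, a shugoshin that guards sister chromatid pairing, among them (log2 change -0.25, adjusted p = 0.00474). The 4 were 2 at equal library totals and without replicate 3 of cen4- cells at 120 min or replicate 1 at 180 min, 8 with array weights and 7 with only the compared groups and with edgeR. Of 14 condensin and cohesin genes 2 rose and 2 fell. None of them rose without replicate 1 or 2 of cen4- cells at 120 min or replicate 1 or 3 at 180 min, 1 rose without replicate 2 at 180 min, and 1 fell without replicate 3 at 120 min. The separase gene ESP1 fell (log2 change -0.28, adjusted p = 0.000606).

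Many mating genes rose in the control strain, and fewer were called in cen4- cells. Over all genes tested, 11.8% rose and 12.9% fell in cen4- cells, and 7.58% rose and 8.24% fell in CEN4 cells. Of 29 a-cell and pheromone genes 4 rose and 8 fell in cen4- cells (median -0.02; 5 fell at equal library totals), and 17 rose and none fell in CEN4 cells (median 0.20). The difference of the steps was below 0 for 17 and above 0 for 1. AGA1, the anchor of the a-cell agglutinin, had 1014, 923 and 986 normalised counts in cen4- cells at 180 min, against 726, 782 and 829.5 at 120 min (log2 change 0.32 ± 0.05 SE, adjusted p = 8.08e-06 by limma). It stood at 3550, 3797 and 3728 at 180 min against 1950, 1765 and 2015 at 120 min in CEN4 cells (difference -0.63 ± 0.08 SE, adjusted p = 4.61e-08). MFA1, which encodes the mating pheromone a-factor, had 1774, 1736 and 1734 normalised counts in cen4- cells at 180 min, against 1980, 1925 and 1819 at 120 min, lower in all 3 libraries but not called (log2 change -0.13 ± 0.08 SE, adjusted p = 0.252), and 6327, 6194 and 6755 at 180 min against 3867, 4232 and 3446 at 120 min in CEN4 cells. FUS1, needed for cell fusion, rose in both strains (log2 change 0.40, adjusted p = 2.5e-05 in cen4- and log2 change 0.44, adjusted p = 6.63e-06 in CEN4 cells). FAR1, which holds cells in G1 on pheromone, fell in cen4- cells (log2 change -0.24, adjusted p = 1.95e-05).

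Purine synthesis genes rose in both strains. Of 15 genes 10 rose in cen4- cells and none fell (median 0.27), against 12 and none in CEN4 cells (median 0.31), and the difference was called for none. ADE17, the enzyme of the last steps to inosine monophosphate, had 6879, 6567 and 6641 normalised counts in cen4- cells at 180 min, against 4092, 4079 and 4436 at 120 min (log2 change 0.67 ± 0.04 SE, adjusted p = 9.01e-15 by limma). The CEN4 cells had 17066, 16217 and 17257 at 180 min against 11027, 10468 and 9806 at 120 min, a higher level at both times (difference -0.02 ± 0.06 SE, adjusted p = 0.892). ADE1 (log2 change 0.56, adjusted p = 1.36e-10), ADE2 (log2 change 0.53, adjusted p = 2.86e-12) and ADE13 (log2 change 0.40, adjusted p = 1.13e-08) rose too.

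One-carbon genes parted by gene. Of 9 genes of glycine decarboxylase and one-carbon metabolism 4 rose in cen4- cells (median 0.06) and 8 in CEN4 cells (median 0.54), with the difference below 0 for 4. GCV1, a glycine decarboxylase subunit on chromosome IV, had 2284, 2355 and 2233 normalised counts in cen4- cells at 180 min, against 1557, 1455 and 1412 at 120 min (log2 change 0.64 ± 0.04 SE, adjusted p = 1.46e-17 by limma). GCV2, another subunit of the same complex on chromosome XIII, had 1249, 1205 and 1163 normalised counts in cen4- cells at 180 min, against 1088, 1178 and 1218 at 120 min, which overlap (log2 change 0.06 ± 0.05 SE, adjusted p = 0.428). In CEN4 cells both rose, with 5427, 5161 and 5491 at 180 min against 2617, 2587 and 2598 at 120 min for GCV1 and 3912, 3727 and 4024 at 180 min against 2097, 1950 and 2007 at 120 min for GCV2. SHM2, the cytosolic serine hydroxymethyltransferase, rose in cen4- cells (log2 change 0.51, adjusted p = 5.81e-12) and by more in CEN4 cells (log2 change 0.81, adjusted p = 1.48e-17; difference -0.30 ± 0.06 SE, adjusted p = 0.000559). MTD1, a folate enzyme, rose in both strains (log2 change 0.59, adjusted p = 2.99e-13 in cen4- and log2 change 0.71, adjusted p = 6.13e-16 in CEN4 cells).

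Genes of sulfur, amino acid and nutrient uptake also changed. Of 22 methionine and sulfur genes 6 rose and 3 fell (median 0.10), against none and 14 in CEN4 cells (median -0.26), and the difference was above 0 for 13. The 6 were 2 without replicate 1 of cen4- cells at 120 min, and 3 without replicate 2 at 120 min or any replicate at 180 min. The 3 that fell were 1 at equal library totals and without replicate 1 at 180 min. The sulfate permease gene SUL2 had 674, 712 and 714 normalised counts in cen4- cells at 180 min, against 599.5, 572 and 576 at 120 min (log2 change 0.26 ± 0.07 SE, adjusted p = 0.0041 by limma). MET2 and MET13, both enzymes of methionine synthesis, were more positive in cen4- cells (difference of the steps 0.58 ± 0.10 SE, adjusted p = 2.29e-05 for MET2 and 0.45 ± 0.10 SE, adjusted p = 0.000665 for MET13). Of 44 amino acid synthesis genes under Gcn4, 10 rose and 3 fell (median 0.03), against 11 and 1 in CEN4 cells (median 0.05). Of 18 amino acid permease genes 6 rose and 4 fell, against 2 and 4 in CEN4 cells. Over all genes tested, 11.8% rose and 12.9% fell in cen4- cells. GAP1, the general permease, had 1208, 1342 and 1232 normalised counts in cen4- cells at 180 min, against 825, 845 and 797 at 120 min (log2 change 0.61 ± 0.07 SE, adjusted p = 2.27e-10). It rose by less in CEN4 cells (log2 change 0.23, adjusted p = 0.0125), a call lost without CEN4 replicate 1 at 120 min, with edgeR and with DESeq2. AGP1, a broad-range permease, rose in both strains (log2 change 0.49 in cen4- and 0.50 in CEN4 cells).

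Of 28 genes of the iron regulon 8 rose and 2 fell in cen4- cells (median 0.05), beside 11.8% and 12.9% of all tested genes. In CEN4 cells 1 of the 28 rose and 8 fell (median -0.04). The difference was above 0 for 8 and below 0 for 1. In cen4- cells 1 gene fell at equal library totals and without replicate 3 at 120 min or replicate 1 at 180 min. FIT2, a cell wall mannoprotein that retains iron carriers, had 873, 871 and 864 normalised counts in cen4- cells at 180 min, against 605, 606 and 548 at 120 min (log2 change 0.57 ± 0.09 SE, adjusted p = 6.16e-07 by limma). The siderophore transporter gene ARN2 had 879.9, 915 and 925 normalised counts in cen4- cells at 180 min, against 662, 648 and 639 at 120 min (log2 change 0.48 ± 0.07 SE, adjusted p = 3.07e-08), and neither gene's groups overlapped. The site of the iron factor Aft1, TGCACCC, searched on both strands, stood in 13 of 28 windows of 250 bases before the start codon (46.4%), against 1.16% of all windows. It stood in 1.44% of the windows of called higher and 1.23% of the called lower genes. The stretch of LSO1 from 250 to 76 bases before its start codon, shown because LSO1 had the largest named rise, holds 1 such site in capitals, 145 bases before the start codon.
LSO1 (chrX:448834-449008, reverse strand): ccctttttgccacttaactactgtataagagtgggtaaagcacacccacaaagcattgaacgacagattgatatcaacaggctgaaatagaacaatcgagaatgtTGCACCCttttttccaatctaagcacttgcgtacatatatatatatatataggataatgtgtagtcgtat

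The lists of carbon metabolism differed from each other, beside 11.8% of all tested genes that rose and 12.9% that fell. Of 22 glyoxylate cycle and gluconeogenesis genes 5 rose and 2 fell (median 0.16), with PCK1, the gluconeogenic carboxykinase, higher in both strains (log2 change 0.46, adjusted p = 0.000354 in cen4- and log2 change 0.42, adjusted p = 0.00202 in CEN4 cells). The 5 were 3 without replicate 2 of cen4- cells at 120 min or replicate 2 or 3 at 180 min, and 9 or 10 with array weights or only the compared groups. Of 20 peroxisome and fatty acid oxidation genes 5 rose and none fell (median 0.15), with 3 risen without replicate 2 at 180 min, 9 at equal library totals and 10 with array weights or only the compared groups. CAT2, a carnitine acetyltransferase, had 549, 596 and 562 normalised counts in cen4- cells at 180 min, against 377, 365 and 357 at 120 min (log2 change 0.64 ± 0.09 SE, adjusted p = 2.32e-07 by limma), and 177, 199 and 169.7 at 180 min against 179, 178 and 154 at 120 min in CEN4 cells. Of 21 glycolysis and ethanol genes 4 rose and 5 fell, and HXK2, the main hexokinase, fell (log2 change -0.23, adjusted p = 3.54e-07). Among 19 hexose transporter genes 1 rose and 4 fell, HXT2 (log2 change -0.43, adjusted p = 0.000536) and HXT1 (log2 change -0.35, adjusted p = 0.000869) among them, both of which fell in CEN4 cells too.

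Respiratory and other metabolic lists are given beside the 24.6% of all tested genes that were called. Of 36 oxidative phosphorylation genes 6 rose and 1 fell (median 0.05), against 15 and 1 in CEN4 cells (median 0.10). In cen4- cells 14 rose at equal library totals, 13 with array weights and 11 with only the compared groups. CYC7, the minor form of cytochrome c, had 1283, 1324 and 1410 normalised counts in cen4- cells at 180 min, against 1057, 1163 and 1000 at 120 min (log2 change 0.32 ± 0.09 SE, adjusted p = 0.00471 by limma), while it fell in CEN4 cells (log2 change -0.61, adjusted p = 3.41e-07). Of 16 citric acid cycle genes 3 rose and 2 fell, of which none fell at equal library totals or without replicate 2 of cen4- cells at 180 min, and 1 without replicate 1 at 120 min. Of 17 phosphate regulon genes 1 rose and 6 fell, the phosphate transporter gene PHO84 among them (log2 change -0.28, adjusted p = 2.69e-05). PHO84 overlaps a noncoding RNA gene, so its reads are uncertain. Of 26 ergosterol genes 2 rose and 7 fell, and the 2 became 0 or 1 in 5 of the 6 fits without 1 library. ERG2, a sterol isomerase gene, stood at 3001, 3043 and 3055 normalised counts in cen4- cells at 180 min, against 3696, 3805 and 3770 at 120 min (log2 change -0.31 ± 0.03 SE, adjusted p = 9.51e-11).

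Several further lists held called members in both directions, beside 11.8% of all tested genes that rose and 12.9% that fell. Of 27 translation factor genes 3 rose and 6 fell. The 6 were 2 at equal library totals and 3 without replicate 3 of cen4- cells at 120 or 180 min, and the 3 were 1 without replicate 2 at 120 min or replicate 1 at 180 min. Of 20 DNA damage genes 4 rose and 1 fell, and 2 rose in each of the 6 fits without 1 library. Of 27 meiosis and sporulation genes 3 rose and 2 fell, and 1 rose without replicate 2 of cen4- cells at 120 or at 180 min. Of 15 drug resistance genes 2 rose and 2 fell, and 1 rose without replicate 1 or 3 at 120 min or replicate 2 or 3 at 180 min. Of 10 DAN and TIR cell wall genes 1 rose and 2 fell, and none rose without replicate 2 at 120 min. The drug pump gene PDR5 fell (log2 change -0.25, adjusted p = 4.96e-08), and RNR3, a ribonucleotide reductase gene raised by DNA damage, rose (log2 change 0.31, adjusted p = 0.00722). The RNR3 call was lost without replicate 1 of cen4- cells at 120 min (adjusted p = 0.0746). TIR1, a mannoprotein of the cell wall, fell less in cen4- than in CEN4 cells (log2 change -0.34 against -0.82, difference 0.49 ± 0.07 SE, adjusted p = 2.58e-06).

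**Figure D3:**
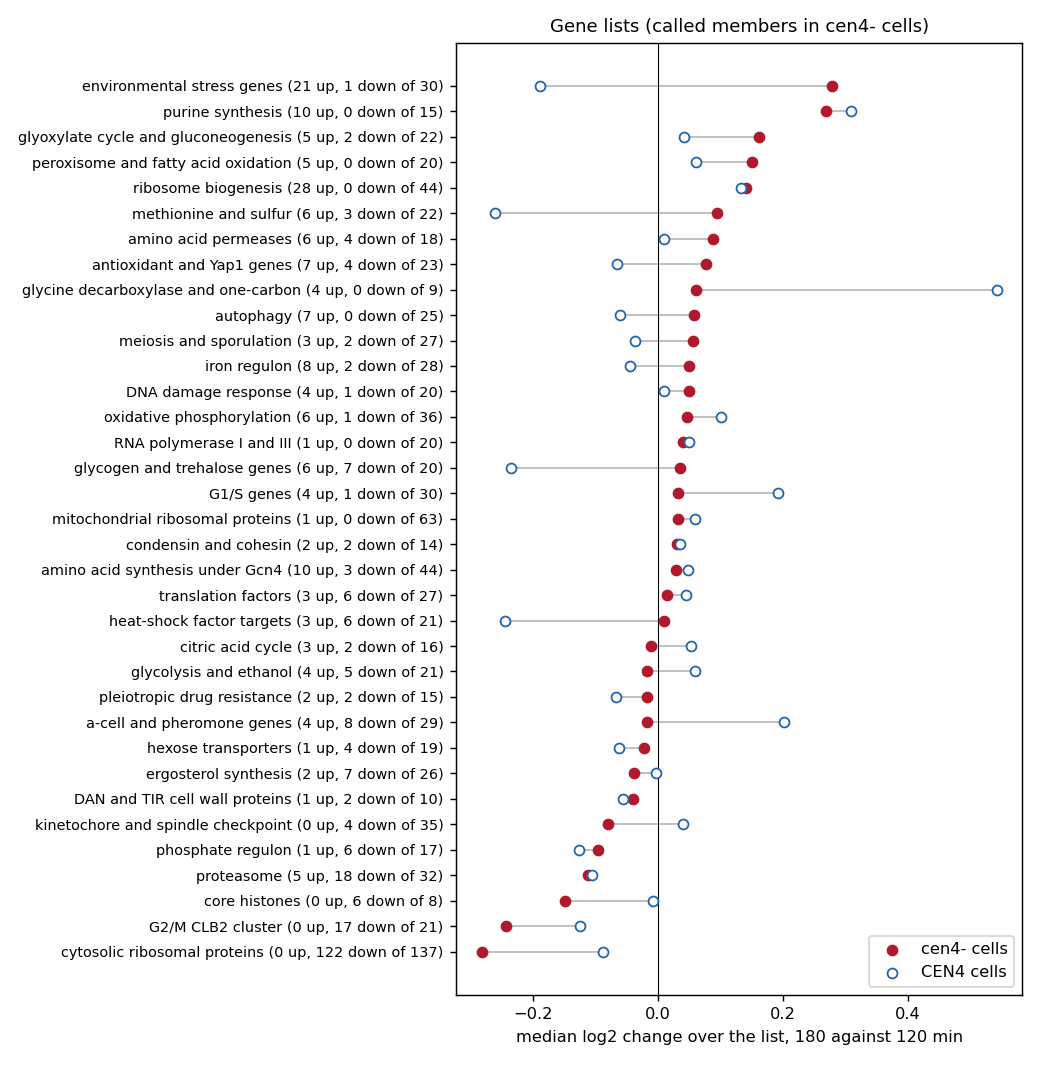
Each row is a gene list, with the median log2 change from 120 to 180 min over its tested members in cen4- cells (filled) and CEN4 cells (open) on the horizontal axis, and the members called in cen4- cells in the label. Of the lists plotted, which leave out the small nucleolar RNAs, stress genes show the highest median in cen4- cells (0.28) and ribosomal protein genes the lowest (-0.28).

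Genes of chromosome IV, the chromosome that loses its centromere, were higher as a group. Of 768 tested, 153 rose (19.9%) and 69 fell (8.98%), and the median log2 change was 0.05. Of 5177 genes on the other nuclear chromosomes 546 rose (10.5%) and 697 fell (13.5%), and the median was 0.00. In CEN4 cells 49 genes of chromosome IV were higher and 64 lower (median 0.00). No other chromosome had a larger share of higher genes in cen4- cells: the next was chromosome IX with 15.2%.

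For each library, log2 values were first set against the mean of its strain at 120 min, and the median of all other nuclear genes was then subtracted from that of chromosome IV genes. It was 0.038, 0.048 and 0.054 on the log2 scale in the cen4- libraries at 180 min, against -0.005, 0.005 and 0.002 at 120 min. The 3 later values lay above all others. The CEN4 libraries had -0.006, -0.014 and 0.006 at 180 min, against -0.005, 0.007 and -0.004 at 120 min. Set against 0 min instead, this shift in the cen4- libraries was 0.065, 0.056 and 0.003 at 60 min, then 0.127, 0.151 and 0.141 at 120 min, and finally 0.196, 0.219 and 0.221 at 180 min. Each cen4- library at 180 min lay above each one at 120 min, and each of those above all at 60 min.

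Along the chromosome, the centromere of which lies at chrIV:449711-449821, the 9 bins of genes differed. The median in cen4- cells was 0.05 between 300 and 500 kb to the left, 0.07 between 100 and 300 kb and 0.04 within 100 kb. On the right arm it was 0.00 within 100 kb, then 0.05, 0.06, 0.06 and 0.05 in the 200 kb bins between 100 and 900 kb. It was -0.01 beyond 900 kb, a value also found in CEN4 cells. In the bin within 100 kb on the right, 8 of 47 genes were higher and 7 lower.

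**Figure D4:**
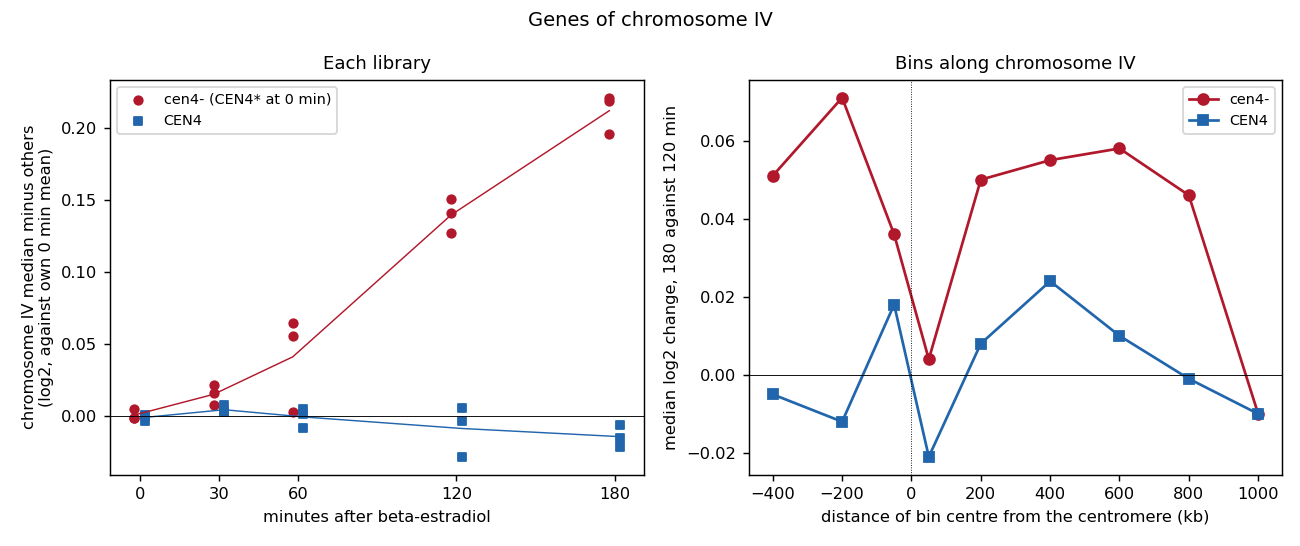
Left, the chromosome IV median after subtraction of the median of other nuclear genes, log2 relative to 0 min of the same strain, by minutes after beta-estradiol, for each library (lines join means of 3). Right, the median log2 change from 120 to 180 min in bins of chromosome IV by distance from the centromere. The cen4- libraries at 180 min lie between 0.196 and 0.221, and the CEN4 libraries stay near 0.

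Membership of chromosome IV also divided 2 protein complexes whose genes are known to be controlled together. The proteasome, the large protease that degrades ubiquitin-tagged proteins, has 32 genes on the list, of which 5 rose and 18 fell (median -0.11). The 5 that rose were all 5 members on chromosome IV (median 0.19), and none of the 27 members elsewhere rose while 18 fell (median -0.12). In CEN4 cells none rose, and 2 of the 5 on chromosome IV and 14 of the 27 elsewhere fell (medians -0.07 and -0.11). The difference of the steps was above 0 for all 5 on chromosome IV and called for none of the 27 elsewhere. Splitting the lists by chromosome was chosen after the values were seen. At equal library totals, and without replicate 1 of cen4- cells at 120 min, 10 of the 32 fell.

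RPT3, an ATPase of the proteasome's regulatory particle on chromosome IV, had 4649, 4634 and 4570 normalised counts in cen4- cells at 180 min, against 3897, 3961 and 3867 at 120 min (log2 change 0.24 ± 0.04 SE, adjusted p = 1.66e-06 by limma). Its values at 180 min exceeded all earlier ones, and CEN4 cells had 2433, 2271 and 2376 at 180 min against 2454, 2482 and 2373 at 120 min, which overlap. RPN9 had 3041, 3084 and 3097 normalised counts in cen4- cells at 180 min, against 2598, 2618 and 2633 at 120 min (log2 change 0.23 ± 0.04 SE, adjusted p = 2.09e-05), RPN5 rose (log2 change 0.19, adjusted p = 6.79e-05), as did RPT2 (log2 change 0.19, adjusted p = 6.38e-05) and RPN6 (log2 change 0.14, adjusted p = 0.0032), all regulatory particle subunits. Away from chromosome IV, RPN8, a regulatory particle subunit, had 1950, 2018 and 1978 normalised counts in cen4- cells at 180 min, against 2332, 2230 and 2204 at 120 min (log2 change -0.19 ± 0.04 SE, adjusted p = 0.000133), and PRE4, a subunit of the catalytic core, had 2357, 2383 and 2334 normalised counts in cen4- cells at 180 min, against 2655, 2552 and 2655 at 120 min (log2 change -0.15 ± 0.04 SE, adjusted p = 0.00137). RPT1 (log2 change -0.17, adjusted p = 0.000898) and PRE5 (log2 change -0.17, adjusted p = 0.00042) fell too. RPN6, RPN8, PRE4, RPT1 and PRE5 were named after their values were seen.

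Genes of the proteasome share an upstream element, GGTGGCAAA, bound by the factor Rpn4. Searched on both strands in the 250 bases before the start codon, it stood in 27 of 32 windows (84.4%), against 1.16% of all windows. It stood before all 5 of the list that rose and 13 of the 18 that fell. RPT3 on chromosome IV and PRE4 on chromosome VI are shown because both hold the element and moved in opposite directions. Capitals mark it, or its other strand, between 250 and 76 bases before the start codon.
RPT3 (chrIV:1261431-1261605, forward strand): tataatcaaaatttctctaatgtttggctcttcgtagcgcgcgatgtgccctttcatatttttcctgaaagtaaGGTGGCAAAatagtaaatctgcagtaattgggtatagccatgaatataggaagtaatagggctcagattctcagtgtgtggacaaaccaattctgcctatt
PRE4 (chrVI:249942-250116, reverse strand): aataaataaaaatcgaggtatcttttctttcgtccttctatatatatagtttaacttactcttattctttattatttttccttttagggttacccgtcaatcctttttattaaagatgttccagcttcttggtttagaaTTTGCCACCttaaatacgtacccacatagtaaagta
The element starts 176 bases before the start codon in RPT3 and 111 bases before it in PRE4. RPN4 itself, on chromosome IV, was slightly higher (log2 change 0.13, adjusted p = 0.0403), a call lost in 4 of 6 fits without 1 library, with adjusted p up to 0.22, and without a filter on low values (adjusted p = 0.0554).

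Ribosomal protein genes also divided by chromosome. Of the 19 on chromosome IV 7 fell (median -0.10), and of the 118 elsewhere 115 fell (median -0.29). In CEN4 cells the medians were -0.10 and -0.08, and the difference of the steps was below 0 for 1 of the 19 and 80 of the 118. On chromosome IV the number that fell was 4 at equal library totals, 12 with array weights and 11 without replicate 3 of cen4- cells at 120 min. The gene of the 19 whose step differed between the strains was RPS13, named after its values were seen (log2 change -0.28 in cen4- and -0.10 in CEN4 cells, adjusted p of the difference = 0.000865).

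Many yeast ribosomal proteins are encoded by a pair of genes, and 12 pairs had 1 copy on chromosome IV and 1 elsewhere. The change in cen4- cells was higher for the chromosome IV copy in all 12 pairs (median difference 0.23), and in CEN4 cells in 8 of 12 (median difference 0.03). The copy elsewhere fell in 12 of 12 pairs, and the copy on chromosome IV in 3. RPL13A on chromosome IV changed by 0.03 (adjusted p = 0.547 by limma), and RPL13B on chromosome XIII by -0.30 (adjusted p = 1.46e-12). RPS16B on chromosome IV changed by -0.06 (adjusted p = 0.0926) and RPS16A on chromosome XIII by -0.29 (adjusted p = 1.57e-11). In 2 of the 12 pairs the copies are near-identical and can share reads. All 5 ribosome biogenesis genes on chromosome IV rose, and 23 of the 39 elsewhere did (medians 0.18 and 0.13). Of the 39 elsewhere, 14 rose without replicate 1 of cen4- cells at 120 min, and 10 rose without replicate 2 at 120 min and without replicate 1 at 180 min.

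**Figure D5:**
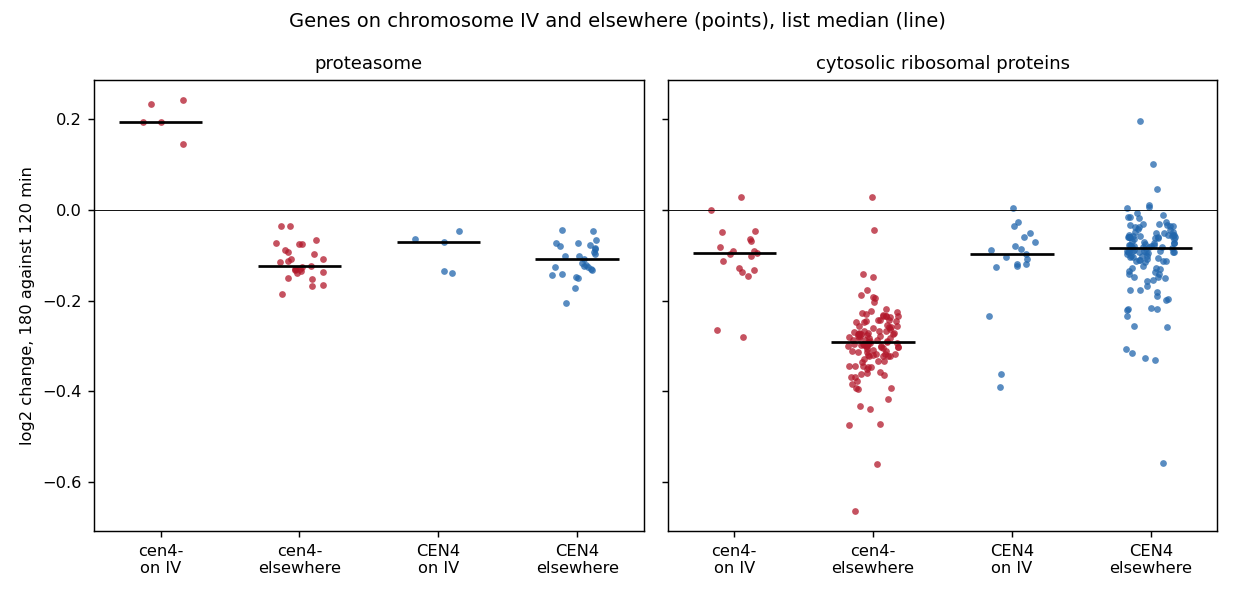
Log2 change from 120 to 180 min (vertical axis) of each proteasome gene and each ribosomal protein gene, on chromosome IV and elsewhere, in cen4- and CEN4 cells; points are genes and lines are medians. In cen4- cells the proteasome medians are 0.19 on chromosome IV and -0.12 elsewhere, and the ribosomal protein medians are -0.10 and -0.29.

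The difference between the strains' steps was largest for LSO1 among the named genes (1.48 ± 0.45 SE, adjusted p = 0.0195 by limma), a call that was lost in 4 of the fits without 1 library (adjusted p up to 0.0914). Below 0, FIG1, which admits calcium in mating, had the largest difference among the named genes (-1.11 ± 0.34 SE, adjusted p = 0.0187), with 26.8, 28.1 and 26.7 normalised counts in cen4- cells at 180 min, against 18.6, 21.4 and 20.98 at 120 min, and 162, 188 and 171 at 180 min against 64.6, 55.2 and 61.2 at 120 min in CEN4 cells. The rise in cen4- cells was not called, and the difference was lost without replicate 2 of CEN4 cells at 180 min (adjusted p = 0.0517). GCV2 (-0.89 ± 0.07 SE, adjusted p = 5.16e-16), MFA1 (-0.87 ± 0.11 SE, adjusted p = 5.92e-06) and PRM1 (-0.77 ± 0.14 SE, adjusted p = 5.57e-05), a membrane fusion gene of mating, rose in CEN4 cells and were not called in cen4- cells. HXT4, a hexose transporter, had 6772, 6198 and 6049 normalised counts in cen4- cells at 180 min, against 6235, 6329 and 6196 at 120 min, which overlap, and 12468, 14039 and 12455 at 180 min against 8066, 7340 and 7003 at 120 min in CEN4 cells (difference -0.78 ± 0.11 SE, adjusted p = 2.05e-05).

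Above 0, the difference was 1.08 ± 0.19 SE, adjusted p = 0.000165 for SHC1, 0.95 ± 0.10 SE, adjusted p = 1.66e-08 for SOL4, 0.93 ± 0.13 SE, adjusted p = 1.6e-07 for CYC7 and 0.88 ± 0.12 SE, adjusted p = 1.53e-05 for TFS1 by limma. PHM7, a member of the stress list, had 1073, 1129 and 1215 normalised counts in cen4- cells at 180 min, against 762, 812 and 731 at 120 min (log2 change 0.57 ± 0.10 SE, adjusted p = 1.16e-05), and 334, 304 and 320.4 at 180 min against 332, 387 and 469.7 at 120 min in CEN4 cells. YNL194C, a membrane protein gene, had 1247, 1345 and 1399 normalised counts in cen4- cells at 180 min, against 858, 938 and 840 at 120 min (log2 change 0.60 ± 0.10 SE, adjusted p = 1.17e-05), and YCL048W-A had 747, 785 and 749 normalised counts in cen4- cells at 180 min, against 495, 559 and 501 at 120 min (log2 change 0.55 ± 0.16 SE, adjusted p = 0.0156). Neither gene's values overlapped between the times in cen4- cells. The YCL048W-A call in cen4- cells was lost without replicate 1 or 3 of cen4- cells at 120 min or replicate 2 at 180 min (adjusted p = 0.0551, 0.0502 and 0.0505).

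The last step was also set beside the first hour, which shares no library with it. In cen4- cells at 60 min, against CEN4* cells at 0 min, 1682 genes were higher (28.3% of those tested) and 1676 lower (28.2%). Of the 699 genes that rose in the last step, 311 had been higher at 60 min (44.5%) and 231 lower (33.0%). Of the 766 that fell, 196 had been higher (25.6%) and 342 lower (44.6%). GPD1 was among those that turned: the excised strain averaged 682 ± 40.6, 1599 ± 71.4, 1146 ± 37.4, 1617 ± 107 and 865 ± 30.9 normalised counts at 0, 30, 60, 120 and 180 min (SD, n = 3 each). SHC1 climbed throughout, with means of 267 ± 0.48, 409.5 ± 24.7, 456 ± 4.70, 693 ± 8.51 and 1175 ± 29.9 at the same times (SD, n = 3 each), and 53.7 ± 15.2, 129 ± 3.66, 128 ± 19.9, 218 ± 5.12 and 177 ± 38.7 in CEN4 cells (SD, n = 3 each).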

How the data were processed

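Total RNA of 30 yeast cultures was sequenced, and 1 table of normalised counts per gene and library was used. Per the submitters' processing notes, the authors used STAR 2.6.1 and DESeq2 with the R64 (sacCer3) build. Each deposited signal value is a read count divided by a DESeq2 size factor, per the file name and values, so changes are relative to the bulk of genes. How reads were counted, whether by strand, and with which annotation is not given in the sources used here. Reads of overlapping and antisense genes therefore cannot be told apart. All values were whole multiples of the library's step within 1e-06 reads (100%), and library totals were between 8218002 and 14956813 reads. Of 7127 genes, 6169 matched R64 (122 by symbol). Symbols altered in the table were replaced by those of R64.

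Groups follow the labels' conditions. limma 3.58.1 in R 4.3.3 (trend and robust options, 10 group means, 20 residual degrees of freedom) was fitted to log2(value + 1) of 5948 genes, those whose mean reached 10, and a gene was called at a Benjamini-Hochberg adjusted p below 0.05. The pseudocount understates changes of low genes. Adjusted p-values in all parts come from this fit unless another tool is named. Its contrasts were cen4- at 180 minus 120 min, the same in CEN4 cells, their difference, and cen4- at 60 min minus CEN4* at 0 min. It was tested on simulated data. Replicates came from 3 independent experiments, and p-values measure the spread between them, without pairing by experiment. edgeR 4.0.16 and DESeq2 1.42.0 were run on recovered reads of 28 libraries, since the steps of the other 2, CEN4 replicate 2 at 120 min and CEN4 replicate 3 at 180 min, are too close to 1 to tell reads from values. No column was left unmapped. Near-identical copies were found with blastn 2.17.0 (at least 90% identity over at least 50% of the length). Sequences are from RefSeq R64, by coordinate.

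The comparison, members and lists were chosen with earlier results of these data known. Named genes were the 10 largest called rises and falls without overlap and with a mean of at least 50, up to 4 called members of each list, the 8 largest strain differences each way, markers and 8 fixed names. Of list symbols, 1 was not matched. Some items are not reported here.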

Additional observations from a re-analysis of the deposited data

Results flagged for a closer look

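The 180 against 120 min step differed between cen4- and CEN4 cells by the test of the difference itself for 741 genes. Among the named rises and falls in cen4- cells, and the named differences, positive values (more positive in cen4- cells, log2) were 1.48 for LSO1, 1.08 for SHC1, 1.00 for YHL015W-A, 0.98 for YCL048W-A, 0.95 for SOL4, 0.93 for CYC7, 0.88 for TFS1, 0.86 for PHM7, 0.85 for YNL194C, 0.80 for MPC3, 0.79 for EGO4, 0.78 for SPG4, 0.67 for HMX1, 0.66 for LYS20 and 0.42 for PIR3. Negative values were -1.11 for FIG1, -0.97 for snR19, -0.89 for GCV2, -0.87 for MFA1, -0.86 for snR189, -0.79 for YCR095W-A, -0.78 for HXT4, -0.77 for PRM1, -0.75 for snR43, -0.63 for snR8, -0.61 for HXT7, -0.53 for snR5 and -0.52 for GPD1. LSO1, MPC3, PIR3, YHL015W-A, FIG1, snR19, YCR095W-A, snR8 and snR5 lost the call in at least 1 fit without a library. MPC3, PIR3 and snR8 lost it in most of those fits. The edgeR and DESeq2 tests did not call HMX1 (adjusted p = 0.0681 and 0.0968) or MPC3 (adjusted p = 0.134 and 0.219). Nor did they call snR19 (adjusted p = 0.202 and 0.0825) or YCR095W-A (adjusted p = 0.0877 and 0.114). Groups of 3 libraries are too small for a test of single outlying libraries.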

How the results depend on the processing

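Called genes in cen4- cells, 1465 at 180 against 120 min, stayed within 1.5 times of that count under the alternatives tried. They numbered 1999 with array weights, 1950 with only the compared groups, 1591 at equal library totals, 1644 with edgeR and 1421 with DESeq2, and between 1179 and 1229 without 1 library. The difference between strains (741) lay between 597 and 798 without 1 library and was 641 with edgeR and 571 with DESeq2. The CEN4 count (941) lay between 669 and 967 without 1 library and was 667 with only the compared groups, 471 with edgeR and 426 with DESeq2, which lack a library in each of its groups. Called and at least 2-fold were 2 genes in cen4- cells, 5 in the difference and 7 in CEN4 cells. The numbers of the labels showed little pairing between the strains: same-numbered cen4- and CEN4 libraries had correlations of their deviations between -0.0335 and 0.0599. With that number as a block the difference called 784 genes. Whether replicates of a strain pair between 120 and 180 min was not tested, and no block was used for the step within cen4- cells. The chromosome IV median minus the others was between 0.039 and 0.048 in every setting (0.045 as reported). Of 165 named genes called in cen4- cells, 38 lost the call under at least 1 alternative, 14 of them under one other than leaving out a library, and none reversed. Of 1380 list counts under alternatives, 137 moved by over 1.5 times. Few reads limit the small nucleolar RNAs and FIG1.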
